A study of Mus musculus with 38 samples.

Results

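The cells described here are 282 mouse embryonic stem cells (mESCs) of the E14 line, grown in 2i medium plus LIF (2i/L) and sorted into single wells for SCRB-seq before any differentiation. They are the wells of the 2i/L plate that held more than 2000 unique molecular identifiers (UMIs). For 9 of these wells, described below, it is not known whether they held single cells. A UMI is a short random label, added before amplification, that lets copies of the same mRNA molecule be counted as one. The plate had 384 wells, so 102 were left out, and the full study held 2448 cells above the same minimum on 9 plates. The least covered cell had 2001 UMIs and the best covered well that was left out had 1990. The study followed these cells through retinoic acid (RA) driven differentiation, with 0.25 µM RA on the other 8 plates for 6 h to 96 h. The 2i/L cells had received no RA. Their medium held 1 µM MEK inhibitor (PD0325901), 3 µM GSK3 inhibitor (CHIR99021) and 1000 U/ml LIF, and the plates were coated with gelatin. Cells were sorted into the wells on Hoechst staining of DNA, used for viability, and whether a range of DNA content was selected is not given in the sources used here. All 282 cells come from 1 culture on 1 plate, so they are not replicates, no test between conditions was run, and the values below describe this culture.

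Naive mESCs correspond to the early epiblast of the embryo before implantation. The MEK inhibitor blocks the FGF/ERK signal that drives exit from pluripotency, the GSK3 inhibitor stabilizes β-catenin and so relieves repression by Tcf7l1, and LIF acts through STAT3. The factors downstream, among them Esrrb, Klf4, Tfcp2l1, Tbx3 and Nanog, form the naive network, and they sit on top of the core factors Pou5f1 and Sox2. In serum several of these genes, Nanog and Zfp42 (Rex1) in particular, are known to be patchy between cells, and 2i medium is known to make their expression more even. Rare cells of a culture can also enter a state that resembles the 2-cell embryo, with the Zscan4 genes as markers.

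Depth differed widely over the cells, with a median of 3938.5 UMIs and a highest total of 95489. The number of detected genes was 847 to 8506 per cell, and its median 1528.5. Of 23481 genes in the table, 13102 had a UMI in these cells. A group of 9 wells stood apart by depth. They held 28302 to 95489 UMIs, while the next deepest well had 19476, and they made up 28.7% of all UMIs of the 282 cells. The same 9 well positions were among the 40 deepest of each of the other 8 plates, although those plates carried other cells, and their totals there were at least 5898. In the remaining wells the totals on the 2i/L plate and on another plate correlated weakly, with Spearman coefficients from 0.16 to 0.457 over the wells. Whether these wells held single cells could not be settled from the files. They are counted among the 282 by the UMI minimum and enter the ranges, shares and Fano factors below except where their removal is stated. The origin of their depth was not tested, and the main results are given with and without these wells.

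**Figure D1:**
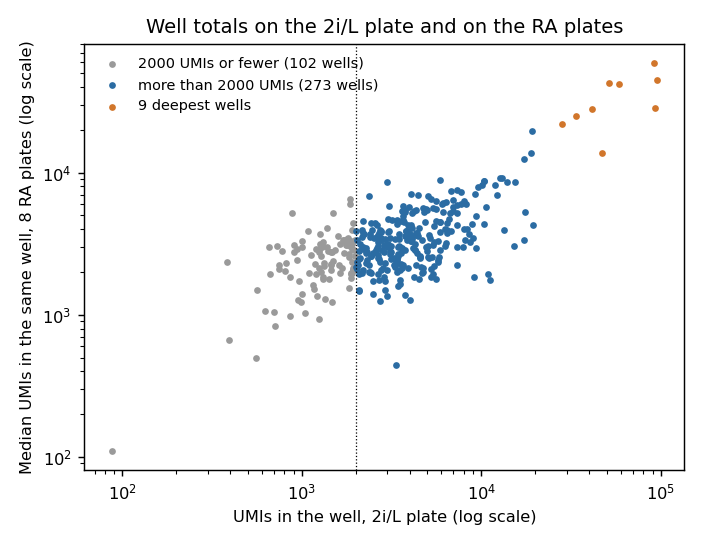
Total UMIs of each of the 384 wells on the 2i/L plate (x axis, log scale) against the median total of the same well position on the 8 RA plates (y axis, log scale). The 9 deepest wells, in orange, sit at the upper right, above 28302 UMIs on the 2i/L plate, and the dotted line marks the minimum of 2000 UMIs.

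The 9 deepest wells were also much alike in content. Thinned to 13855 UMIs each, they had a median Fano factor of 0.988 over 390 genes, where the Fano factor is the variance over the mean and 1 is the value of Poisson counting. The next 9 wells in depth, thinned to the same number, had a median of 1.74 over 369 genes. The sum of the G2/M genes, which follow the cell cycle, had a Fano factor of 0.979 in the deepest wells and 9.08 in the next 9. The sum of the ribosomal protein genes had 0.861 and 77.3. By the median gene and these sums the 9 deepest wells differed by no more than counting, while the next 9 wells differed by more. The next 9 were mixed, however. Well N2, with 19065 UMIs, had 20.4% ribosomal protein and 0.603% G2/M UMIs, and well B9 20.1% and 0.545%. These values lie within the ranges of the 9 deepest wells, so the cut by depth may leave similar wells among the other 273 cells. Across 3887 genes on the log2 scale, the pooled wells below the minimum correlated with the 273 cells at 0.912, and the pooled deepest wells at 0.884. Rn45s, a ribosomal RNA precursor, had 637 UMIs per 10000 in the wells below the minimum against 847 in the 273 cells, and Zfp42 4.64 against 4.07.

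A set of genes was scarce in these wells. Of 3896 genes with enough UMIs, 333 had at least 2 times their share in the other cells as in the 9 deepest wells, and 10 genes differed as much in the opposite direction. The 333 genes made up 4.49% of the UMIs of the deepest wells, 15.7% of those of the other 273 cells and 17.7% of those of the 102 wells left out. In the 2 bulk libraries of mESCs, made from many cells in the same medium, they made up 5.14% and 4.50%. Over the 273 cells their share ran from 4.22% to 52.03%, with a median of 16.1%. In the 9 deepest wells it ran from 4.23% to 5.00%, and thinned to 13855 UMIs the sum of these genes had a Fano factor of 2.93 there, above that of counting, against 148 in the next 9 wells. The median was 18.01% in the 69 shallowest and 14.6% in the 68 deepest of these cells. The list holds Nanog and the mitosis gene Cenpf. Of its 189 tested members with known transcripts 86.2% shared a run of 46 bases with the transcript of another tested gene, against 40.1% of 1229 other genes. This set was defined only once the values were known, and the counts of genes and pairs and the main list sums below are also given with these genes (called scarce genes) and Rn45s left out, in 262 cells thinned to 1500 UMIs.

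Cell-to-cell variation was measured after thinning each cell to 2000 UMIs, averaged over all possible draws, for genes with a mean of at least 0.2 UMIs. Of 1485 such genes, 806, or 54.3%, had a Fano factor above 1.28, a limit that Poisson counting passes in 0.1% of genes for 282 cells. The excess was small for most genes. The median Fano factor was 1.30, the 10th percentile 1.14 and the 90th percentile 1.54, and only 38 genes reached 2. The share rose with coverage, since 44.4% of 939 genes with a mean below 0.5 passed and 97.8% of 45 genes with a mean of 5 or more. Without the 9 deepest wells 820 of 1476 genes passed (55.6%), 800 of them the same genes. Without the scarce genes and Rn45s 714 of 1277 passed (55.9%), and 6 reached a Fano factor of 2.

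**Figure D2:**
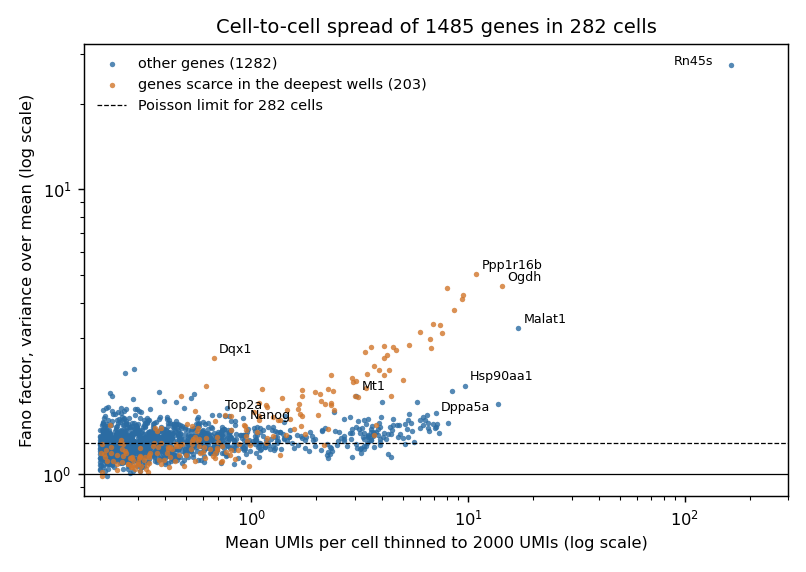
Fano factor of 1485 genes (y axis, log scale) against their mean in 282 cells thinned to 2000 UMIs (x axis, log scale). Each point is a gene, orange points are the 203 tested genes that were scarce in the deepest wells, and the dashed line is the Poisson limit of 1.28. Most genes lie just around the limit, and 33 of the 38 genes at 2 or more are orange.

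The largest Fano factor belonged to Rn45s, the precursor of ribosomal RNA, which has no coding sequence. Rn45s took between 269 and 2603 UMIs per 10000 of a cell, with a median of 742, and its Fano factor was 27.4 (27.9 without the deepest wells). In cells of the same medium measured with SMART-seq2, a method that reads whole transcripts, its squared coefficient of variation (CV²) was only 0.015 over 82 cells, against 0.161 here after removal of counting noise. Of the 20 genes with the highest Fano factors, 18 were scarce in the deepest wells, as were 203 of all 1485 tested genes. Scarce genes did not pass the limit more often, with 106 of 203 (52.2%) against 700 of 1282 other genes (54.6%). The median Fano factor was 1.30 in both sets. Ppp1r16b, which encodes a regulatory subunit of protein phosphatase 1, had a Fano factor of 5.03, Ogdh, a subunit of the oxoglutarate dehydrogenase complex, 4.57, and Luc7l2, a splicing factor, 4.24. Gmeb1, a DNA-binding protein, had 4.11, and Ttf1, which ends transcription by RNA polymerase I, had 3.36. In these cells Ppp1r16b ran from 3.32 to 225 UMIs per 10000, with a median of 48.9, while the bulk libraries held 7.45 and 5.59 and the 9 deepest wells 10.2 to 14.5.

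Malat1, a nuclear long noncoding RNA that is retained at splicing bodies, led the remaining genes. It ran from 9.07 to 208 UMIs per 10000 with a median of 83.3, and had a Fano factor of 3.25, or 3.52 without the scarce genes. Its excess CV² of 0.132 stood beside a CV² of 0.407 in the SMART-seq2 cells. Kcnq1ot1, the noncoding RNA that silences the imprinted Kcnq1 domain in cis, had a Fano factor of 1.79 (2.03 without the scarce genes). Both had higher levels in single cells than in bulk, where Malat1 had 7.69 and 25.9 and Kcnq1ot1 0.672 and 0.901 UMIs per 10000. Hsp90aa1, the inducible cytosolic HSP90 chaperone, ran from 4.75 to 114 UMIs per 10000 with a median of 45.97, and had a Fano factor of 2.04. Of the genes with few UMIs, Ttn, which encodes the muscle protein titin, had a Fano factor of 2.33 and Ahnak, a giant scaffold protein, 2.27. Both have very long transcripts, and Ttn had a UMI in 98 cells with up to 33 in one cell.

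Relative variation was ranked by the excess CV², the Fano factor minus 1 over the mean, which removes counting noise. Among genes with a mean of at least 0.5 UMIs the first was Dqx1, an RNA helicase-like gene, with 2.31, followed by Efcc1 with 1.68, and both were scarce in the deepest wells. Celf1, a regulator of splicing and mRNA decay, had 1.66, and Cacybp, a partner of Siah ubiquitin ligases, 1.60. Celf1 had a median of 1.82 UMIs per 10000 and reached 56.9 in its highest cell. Cacybp had a median of 1.17 and reached 49.4. Both were more even in SMART-seq2, where Celf1 had a CV² of 0.223 and Cacybp 0.1. The values of Hspa4, a chaperone of the HSP110 family, were 1.04 here and 0.109 there, and those of the glycolytic enzyme Pgam1 0.929 and 0.0914. Lefty2, an inhibitor of Nodal signalling, had the opposite order, as did Dqx1, Efcc1 and Kif3a. No noise was removed from the SMART-seq2 CV², so a higher value there can hold technical noise and the 2 measures are unlike. The excess CV² of Lefty2 was 0.907 in SCRB-seq and its CV² 5.93 in SMART-seq2. In SMART-seq2 Dqx1 had a CV² of 2.92 and Efcc1 2.95. Kif3a, also scarce in the deepest wells, had 1.19 in SCRB-seq and 1.72 in SMART-seq2.

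The cells carried the markers of their label. Zfp42, Dppa5a and Esrrb, the markers fixed for mESCs, had UMIs in 69.9%, 100% and 67.7% of cells, and in the SMART-seq2 cells all 3 were listed above 0 in 82 of 82 cells. Dppa5a, an RNA-binding protein of the pluripotent state on chromosome 9 of GRCm38 (78367052 to 78368177), ran from 3.35 to 107 UMIs per 10000 with a median of 39.4. Its Fano factor was 1.96, or 2.05 without the scarce genes. This is the highest value among the 11 tested naive pluripotency genes, but with a mean of 8.40 UMIs its excess CV² was only 0.114, and the SMART-seq2 CV² was 0.111. Zfp42, a zinc finger protein on chromosome 8 (43295063 to 43306980), ran from 0 to 36.0 UMIs per 10000 with a median of 2.90. Its Fano factor was 1.54 and its excess CV² 0.666, against 0.121 in SMART-seq2. Esrrb, an orphan nuclear receptor on chromosome 12 (86361117 to 86521628), ran from 0 to 24.6 UMIs per 10000 with a median of 3.25. Its Fano factor of 1.29 barely passed the limit and did not without the scarce genes (1.21).

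Of the 19 genes of the naive pluripotency list 11 had enough UMIs, and 8 of these passed the limit, against the 54.3% of all genes tested. Next to the markers above these were Tfcp2l1 with a Fano factor of 1.42, Klf4 with 1.40, Nanog with 1.49, Spp1, the secreted protein osteopontin, with 1.47, and Fbxo15 with 1.31. Klf2, a target of MEK inhibition, had 1.23, Tbx3 1.24 and the kinase cofactor Tcl1 1.19, below the limit. The level of Nanog, a homeobox factor, depended on the wells. It had 4.33 UMIs per 10000 in the 273 cells and 5.16 in the wells left out, but 0.961 in the deepest wells and 1.58 and 1.49 in bulk. In SMART-seq2 it was listed above 0 in 81 of 82 cells, from 0 to 660 RPKM with a median of 274 and a CV² of 0.218.

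Of the core pluripotency list, 4 of 9 tested genes passed, against 54.3% of all tested genes. Tdgf1, the Nodal coreceptor Cripto, had a Fano factor of 1.38, the RNA-binding protein L1td1 1.41 and the corepressor Trim28 1.31, and the zinc finger factor Zfp281 1.31. Pou5f1 had 1.21, Sox2 1.23, Sall4 1.08 and Fgf4 1.17, all below the limit. Sox2 ran from 0 to 32.96 UMIs per 10000 with a median of 5.82. Pou5f1 had the lowest CV² of the naive and core lists in SMART-seq2, 0.0977, over a range from 109 to 451 RPKM. Naive genes with too few UMIs here included some that were uneven there. Dppa3 (Stella), a maternal factor of germ cells and the early embryo, was listed above 0 in 42 of 82 SMART-seq2 cells and reached 1120 RPKM, with a CV² of 4.51. In SCRB-seq it had 105 UMIs in all, in 52 of 282 cells and up to 10 in one. Prdm14, a repressor of FGF receptor genes, had 28 UMIs here and a CV² of 1.43 in SMART-seq2.

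The shared variation of the naive genes was small next to that of the G2/M genes described below. Their sum took 0.235% to 1.55% of a cell's UMIs in the 273 cells, with a median of 0.824%, and 0.968% to 1.09% in the deepest wells. The Fano factor of the sum was 1.78, against 1.68 if its genes varied independently. The difference corresponds to a shared CV of 7.56%, the part of the variation that is common to the genes of a list, to 10.4% without the deepest wells and the scarce gene of the list, and to 2.20% with all scarce genes and Rn45s left out. Sums over alternate genes of the list correlated at 0.0333 over the 282 cells. Of 55 pairs of naive genes 35 had a positive correlation, with a median of 0.0146, against a median of -0.00244 and 47.7% positive among all 1101870 pairs of tested genes. Zfp42 and Dppa5a had r = 0.0718, Zfp42 and Esrrb 0.00117, Nanog and Esrrb -0.0651 and Pou5f1 and Sox2 -0.0518. These are weak correlations in sparse counts. In SMART-seq2 the median over the same 55 pairs was 0.107, with 74.5% positive, and Zfp42 and Dppa5a had 0.299. There the shared CV was 10.8% and sums over alternate genes correlated at 0.431.

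Genes of G2 and mitosis (G2/M) had the largest shared variation of the 17 lists with at least 1000 UMIs. Top2a, the topoisomerase that untangles sister chromatids, lies on chromosome 11 (98992943 to 99024189, reverse strand) and ran from 0 to 22.3 UMIs per 10000 with a median of 2.34. Its Fano factor was 1.61 and its excess CV² 0.861. Hmmr, a mitotic spindle protein on the same chromosome (40701395 to 40733422, reverse strand), had a Fano factor of 1.52 and an excess CV² of 1.43. Promoters of G2/M genes are known for repeated CCAAT boxes, bound by NF-Y, and for a CHR element (TTTGAA), bound by the DREAM complex. Both promoters are shown because Top2a and Hmmr had the highest SCRB-seq correlation of the 4 G2/M pairs compared, from 250 bases before the RefSeq start to 30 after it, on GRCm38.p6 and in the direction of the gene. Gene positions in the text are those of GENCODE, whose starts differ from those of RefSeq for Hmmr, Mt1 and Mt2. Capitals mark CCAAT and TTTGAA on either strand (ATTGG and TTCAAA on the reverse).
Top2a, chr11:99024160-99024439, reverse strand: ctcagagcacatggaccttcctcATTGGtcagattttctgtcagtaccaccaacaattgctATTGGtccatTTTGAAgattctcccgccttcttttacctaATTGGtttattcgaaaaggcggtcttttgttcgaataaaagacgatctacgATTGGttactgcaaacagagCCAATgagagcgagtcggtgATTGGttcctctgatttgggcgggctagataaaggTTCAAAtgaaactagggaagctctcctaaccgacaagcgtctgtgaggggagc
Hmmr, chr11:40733408-40733687, reverse strand: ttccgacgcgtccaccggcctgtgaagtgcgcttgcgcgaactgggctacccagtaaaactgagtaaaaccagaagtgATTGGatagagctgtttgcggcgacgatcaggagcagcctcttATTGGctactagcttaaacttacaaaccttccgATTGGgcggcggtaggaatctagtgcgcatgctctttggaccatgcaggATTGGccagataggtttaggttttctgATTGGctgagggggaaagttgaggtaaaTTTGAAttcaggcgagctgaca

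Top2a held 6 CCAAT matches and 2 TTTGAA matches in this window, and Hmmr 5 and 1. Of 27025 promoters of the same length 36.6% held CCAAT at least once, 3.39% held it 3 or more times, and 17.4% held TTTGAA. A match describes the letters and does not show binding. Over the 282 cells Top2a and Hmmr had r = 0.206 (0.211 without the deepest wells), or 0.570 once counting noise was removed from the variances. Top2a and the proliferation marker Mki67 had 0.152, and Top2a and the kinetochore protein Cenpf 0.151. Hmmr and Cenpf had 0.11. In SMART-seq2 the first 3 pairs had 0.205, -0.0475 and 0.11, and Hmmr and Cenpf had the highest value, 0.402.

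The sum of 38 G2/M genes took between 0.126% and 1.71% of a cell's UMIs in the 273 cells, with a median of 0.451%. In the 9 deepest wells it took 0.538% to 0.642%. After thinning, the sum had a mean of 10.2 UMIs and an SD of 6.02, where Poisson counting gives 3.20. Its Fano factor was 3.54, against 1.40 if the genes varied independently, and the shared CV was 45.7%. Sums over alternate genes of the list correlated at 0.437, and 74 of 78 pairs of its 13 tested genes had a positive correlation, with a median of 0.0837. Of the 13 genes 9 passed the limit, against 54.3% of all tested genes, among them the chromatin protein Hmgb2 with a Fano factor of 1.46, the importin Kpna2 with 1.38 and Arl6ip1 with 1.54, while cyclin B1 (Ccnb1) with 1.18 and Cks2 with 1.20 did not. Cdc20, the activator of the anaphase-promoting complex, had too low a mean for the count but a Fano factor of 1.87 and up to 27.1 UMIs per 10000 in a cell. The shared CV was 54.7% without the scarce genes and 45.6% in SMART-seq2, where 96.2% of the pairs were positive. The range of DNA content that the sort let through bears on this sum and was not tested.

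The G2/M list had a larger shared CV in 2i/L than on each of the RA plates. Without the deepest wells its Fano factor was 3.63 in 2i/L with a mean of 10.2 UMIs. On the 8 RA plates the mean was 12.3 to 14.1 UMIs and the Fano factor 1.60 to 3.14, and the shared CV was 14.3% to 32.8% against 46.7% in 2i/L. Each plate is 1 culture and plates differed in depth, so time and plate cannot be told apart and the difference was not tested.

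**Figure D3:**
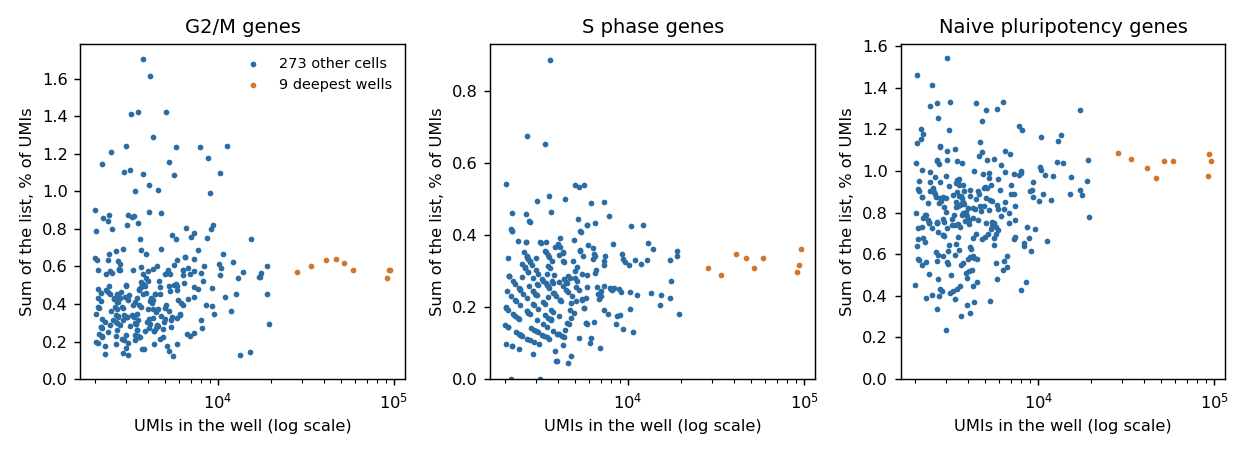
Sum of the G2/M (left), S phase (middle) and naive pluripotency (right) lists as a percent of a cell's UMIs (y axes) against the UMIs of the well (x axes, log scale), with 1 point per cell. The 273 cells, in blue, spread from 0.126% to 1.71% in G2/M genes, while the 9 deepest wells, in orange, stay between 0.538% and 0.642%.

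S phase genes varied less. Of 29 genes 10 were tested and 4 passed, against 54.3% of all tested genes, the replication licensing genes Mcm2 with a Fano factor of 1.41, Mcm4 with 1.46 and Mcm6 with 1.40, and the histone chaperone Nasp with 1.35. Their sum ranged from 0% to 0.885% of UMIs with a median of 0.252%. Its Fano factor was 1.53 against 1.26 if independent, a shared CV of 22.7%. Of the 45 pairs of tested S phase genes 20 had a positive correlation (44.4%), with a median of -0.00260. Over all pairs of tested genes 47.75% were positive. The same S phase pairs had a median of 0.209 in SMART-seq2, with 88.9% positive, against 50.7% of all pairs there. In SMART-seq2 the shared CV was 25.9% and sums over alternate genes of the list correlated at 0.811, against 0.136 here, where each cell had a mean of only 5.28 UMIs of the list. The S phase and G2/M sums had r = -0.0732. The histone genes had a shared CV of 21.7% and a correlation of 0.195 with the G2/M sum. In SMART-seq2 the histone list had 6.59%.

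With all genes kept, ribosomal protein genes had the largest Fano factor of any list sum, 6.91 against 1.41 if independent. They took 10.1% to 21.3% of UMIs in the 273 cells with a median of 16.6%, 19.7% to 20.4% in the deepest wells, and 30.6% and 32.01% in bulk. Of 83 tested genes 63 passed, with a median Fano factor of 1.38. Over all tested genes the share was 54.3%, and it was 79.8% for genes with a mean of 2 to 5 UMIs. Their sum correlated with the share of the scarce genes at -0.593. As shares of one total, these move against each other by construction to some degree. Without the scarce genes and Rn45s the Fano factor of the ribosomal sum was 3.19. This was below the G2/M sum at 3.94 and the sum of 4 nuclear RNAs at 3.80. The shared CV of the ribosomal sum was then 7.42%, against 12.9% with all genes kept and 8.19% in SMART-seq2. The sum of the subunits of the respiratory chain and ATP synthase had a Fano factor of 2.12 and a shared CV of 14.9%, or 10.8% without the scarce genes. The ribosomal and respiratory sums had r = 0.415 with the scarce genes and 0.0918 without them.

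The metallothionein genes varied together in both methods. Mt1 and Mt2, small proteins that bind zinc and other metals, are neighbours on chromosome 8, Mt1 from 94179082 to 94180327 and Mt2 from 94172664 to 94173568. Their transcription is known to follow metal-responsive elements, bound by the zinc sensor Mtf1. Both promoters are shown because the genes varied together, in a window of the same length as above. Capitals mark TGCNCNC on either strand (GNGNGCA on the reverse). This pattern is looser than the core of that element, because it allows any base after TGC.
Mt1, chr8:94178839-94179118, forward strand: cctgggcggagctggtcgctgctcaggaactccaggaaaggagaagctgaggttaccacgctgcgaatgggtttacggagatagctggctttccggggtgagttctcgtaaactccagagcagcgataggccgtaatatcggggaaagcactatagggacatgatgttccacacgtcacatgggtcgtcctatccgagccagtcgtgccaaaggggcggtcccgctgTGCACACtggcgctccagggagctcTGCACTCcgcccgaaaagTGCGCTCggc
Mt2, chr8:94172368-94172647, forward strand: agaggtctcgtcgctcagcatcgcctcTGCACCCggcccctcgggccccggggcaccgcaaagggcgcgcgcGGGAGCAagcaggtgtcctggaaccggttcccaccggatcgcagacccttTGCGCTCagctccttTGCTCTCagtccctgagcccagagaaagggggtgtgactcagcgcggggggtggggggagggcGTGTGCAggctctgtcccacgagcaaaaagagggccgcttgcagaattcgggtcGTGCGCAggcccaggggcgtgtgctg

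Mt1 held 3 matches of this loose pattern and Mt2 held 6, and some of those in Mt2, such as TGCTCTC, may not be cores of the element. Of all promoters 47.9% held at least 1 match of the same loose pattern and 6.05% held 3 or more. In single cells Mt1 ran from 0 to 77.2 UMIs per 10000 with a median of 13.3 and a Fano factor of 1.88, and Mt2 from 0 to 44.3 with a median of 10.8 and a Fano factor of 1.66. Excess CV² was 0.289 and 0.273, close to the CV² of 0.241 and 0.202 in SMART-seq2. Their correlation was 0.218 over the SCRB-seq cells, 0.505 after removal of counting noise, and 0.813 over the SMART-seq2 cells. The transcripts share no run of 46 bases. On the RA plates the mean of Mt1 was lower than the 3.04 UMIs in 2i/L, with 1.49 at 6 h, 1.13 at 12 h, 0.318 to 0.596 from 24 h to 72 h in no steady order, and 0.105 at 96 h. Here too plate and time cannot be told apart.

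Of 29 gene lists 24 had a mean sum of at least 0.2 UMIs, and the sums of 18 of these exceeded the Poisson limit. Targets of p53 had a shared CV of 25.7%, and 29.3% in SMART-seq2. Sums over alternate genes of that list correlated at only 0.0388 here, against 0.749 in SMART-seq2, and 5 of 10 pairs were positive with a median of 0.00237. Among them Ei24 had a Fano factor of 1.94, the cyclin Ccng1 1.79, Trp53inp1 1.49 and the cell cycle inhibitor Cdkn1a (p21) 1.38. Of 5 tested p53 targets 4 passed, against 54.3% of all tested genes. Ccng1 ran from 0 to 34.6 UMIs per 10000, and Ei24 from 0 to 31.3. Glycolytic genes had a shared CV of 16.5%, and 10 of 11 passed against the same 54.3%. The kinase Pgk1 had a Fano factor of 1.60 and lactate dehydrogenase A (Ldha) 1.39. The chaperones of the endoplasmic reticulum had a shared CV of 23.2% and 28.3% in SMART-seq2, and the cholesterol genes 24.1% and 26.3%. Genes of the integrated stress response had 6.84%, and 26.5% in SMART-seq2. The shared CV in SCRB-seq rests on few UMIs for these lists, with means from 1.76 to 11.1 per cell.

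**Figure D4:**
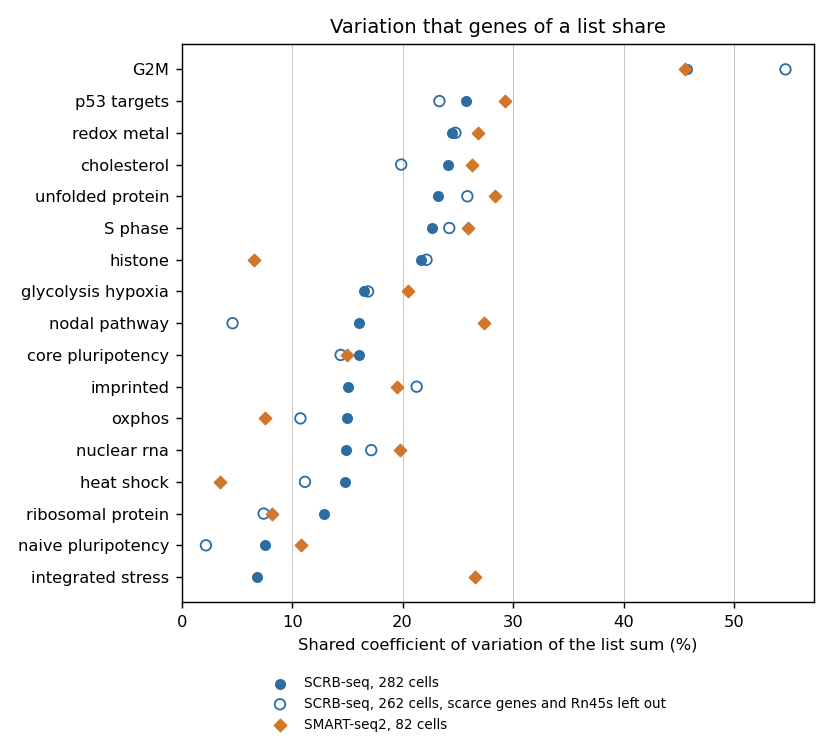
Shared coefficient of variation (x axis, percent) of the 17 gene lists with at least 1000 UMIs, ordered by the SCRB-seq value. Filled circles are 282 SCRB-seq cells, open circles 262 cells without the scarce genes and Rn45s, and diamonds 82 SMART-seq2 cells. G2/M genes lie at 45.7%, 54.7% and 45.6%, and naive pluripotency genes at 7.56%, 2.20% and 10.8%. No open circle is drawn for the integrated stress list, whose genes gave no shared variance there.

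Gene pairs were compared among the 389 genes that passed the limit with a mean of at least 0.5 UMIs. Of 75466 pairs 1430 had a correlation of 0.3 or more (1.89%) and 39 of -0.3 or less (0.0517%), with a median of -0.00457. Both genes were scarce in the deepest wells in 1407 of the 1430 pairs. The highest was Luc7l2 with Pbld1 at 0.828, then Gmeb1 with Sec23ip at 0.765 and Ogdh with Slfn5 at 0.76. Each of the 39 negative pairs joined a scarce gene to another gene, and 21 held the translation elongation factor Eef1a1, with -0.405 for Eef1a1 and Gmeb1 the lowest. Of the positive pairs with known transcripts 38.96% shared a run of 46 bases, against 2.01% of all pairs. Without the deepest wells 1255 pairs had 0.3 or more, and 26 had -0.3 or less.

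The same pairs were compared in SMART-seq2. The 15 highest pairs had correlations from -0.12 to 0.11 there, with a median of -0.0181. Of 1378 of the 1430 pairs with values 0.798% reached 0.3, against 1.96% of all 74305 pairs with values. Of the 333 scarce genes 98 entered the pairs, and 1407 of their 4753 pairs reached 0.3 in SCRB-seq. Few of the same pairs had such a correlation in the other method. Which property of the cells or of the wells they follow was not tested.

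Without the scarce genes and Rn45s 20 of 39621 pairs had 0.3 or more (0.0505%) and 0 had -0.3 or less. Of 18 of these with known transcripts 15 (83.3%) shared a run of 46 bases, against 0.456% of all pairs. Dppa5a and Gm6083 had 0.553, Rps26 and Gm6654 0.551, Gapdh and Gm12070 0.534, and the tubulins Tuba1a and Tuba1b 0.481. Reads of genes with near-identical sequence can be split between them by alignment, so the separate values of these genes are uncertain. With counting noise removed the coefficient was 1.60 for Rps26 and Gm6654 and 1.71 for Gapdh and Gm12070, which is outside the range of a correlation. With all genes kept, some of the highest scarce pairs also exceeded 1. Luc7l2 and Pbld1, which share a run, had 1.07, and Ogdh and Slfn5, which share none, had 1.04. Others did not, such as Ogdh and Ppp1r16b with 0.911. Not all pairs that share a run exceeded 1. A630089N07Rik had 0.845 with Kcnq1ot1 and 0.842 with Fut8. The 3 pairs that share no run joined A630089N07Rik, Gm17821, A130077B15Rik and Kcnq1ot1, at 0.31 to 0.406. In SMART-seq2 these pairs had -0.00909, -0.173 and -0.0693. Malat1 and Kcnq1ot1, both nuclear RNAs that share no such run, had 0.278 in this setting and 0.5 in SMART-seq2.

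**Figure D5:**
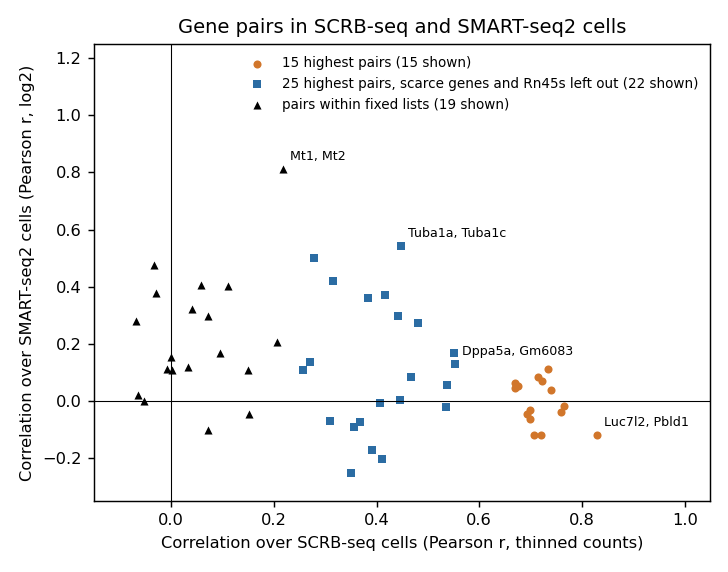
Pearson correlation of gene pairs over SMART-seq2 cells (y axis, log2 values) against SCRB-seq cells (x axis, thinned counts). The 15 highest SCRB-seq pairs, orange circles, lie between 0.669 and 0.828 on the x axis and near 0 on the y axis. Blue squares are the highest pairs without the scarce genes and Rn45s, and black triangles are pairs within fixed lists, of which Mt1 and Mt2 reach 0.813 in SMART-seq2.

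Rare expression was sought over the 9578 genes that had 10 or more UMIs in total. Of these 1596 (16.7%) had a UMI in at most 5% of cells, that is in no more than 14. Most were thinly spread. The largest count in any cell was 1 for 156 of them, 2 for 663 and 3 or more for 777, and 101 reached 5 in a cell but 0 reached 10. Of the 15 genes with the highest counts 6 had them in one of the deepest wells. Without those wells 1498 genes were rare, 119 reached 5 in a cell, and Zbtb8b and the glucocorticoid receptor gene Nr3c1 had 9 in a cell. Khdc3, an oocyte and early embryo gene, had 30 UMIs in 14 cells and up to 6 in one. Rare here did not mean rare in SMART-seq2, where Khdc3 was listed above 0 in 57 of 82 cells, Tmem50b in 59, Nsun4 in 56 and B3gnt2 in 62.

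Markers of differentiated lineages had few UMIs. Genes of extraembryonic endoderm (XEN) had 691 UMIs, mostly Sparc with 252, Lama1 with 212 and Lamc1 with 203, which are matrix genes. Gata6 and Sox17, the factors that define that lineage, had 0 UMIs, Gata4 had 1 and Pdgfra 2. The ectoderm list had 424 UMIs, of which the growth factor Mdk held 190 and the surface protein gene Cd24a 113, and Pax6 had 0 and Sox1 2. The mesoderm list had 25 UMIs and the trophectoderm list 62. The post-implantation epiblast list had 288 UMIs in 9 of 12 genes, with 83 of Dnmt3b, and without the deepest wells 108 of 273 cells had a UMI of it. Of its other genes Pou3f1 and Wnt8a had 0 UMIs, Otx2 3 and Fgf5 9. Fibroblast genes, a check for other cells in the culture, had 68 UMIs in 2 of 11 genes, with Acta2 at 66. Acta2 is a scarce gene, with 0.439 UMIs per 10000 in the 273 cells against 0.129 in the deepest wells and 0.118 and 0.0754 in bulk. A count of 0 in 282 cells allows a UMI of the gene in up to 1.06% of cells by counting error alone, which does not cover the plate-wide zeros described next.

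Markers of the 2-cell-like state were low on this plate. The whole list had 185 UMIs from 12 of 32 genes, 85 of them from Calcoco2, and without the deepest wells 97 of 273 cells had a UMI of it, with up to 5 in a cell. In SMART-seq2 the list had a shared CV of 171%. The 8 Zscan4 and Tcstv genes had 0 UMIs in the 282 cells, and also 0 at 6 h, 12 h and 96 h. From 24 h to 72 h they had UMIs in 6.21% to 54.2% of cells, up to 465 in a single cell. In bulk mESCs the 8 genes had 11 and 13 UMIs in all, and 11 of 82 SMART-seq2 cells in 2i/L had at least 1 RPKM of one of them, up to 79.1 RPKM, with 2 cells at that level in more than 1 gene. In total 130 genes had 0 UMIs on the 4 plates that lack these genes and at least 20 on the other 5, and 24 genes had the reverse pattern. Among the latter was the epiblast factor Otx2, with 35 and 0 UMIs. Plate, table and time cannot be told apart here, so the 0 UMIs of Zscan4 describe this plate's table.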

How the data were processed

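SCRB-seq values are UMI counts per gene and well, deposited by the authors without normalization after alignment with BWA 0.7.4 to RefSeq mRNAs of mm10. The bulk counts were deposited in the same form. For SMART-seq2 the authors deposited RPKM from TopHat and Cuffnorm, so the reads of each cell cannot be taken from the values. The paper states a minimum number of reads for the cells it used. Of the RPKM, 2467 values written with a decimal comma were read as numbers. All 4 entries with a repeated gene name were dropped, and RPKM were scaled to the median cell total. The CV² was taken on these scaled values with no noise removed, and correlations between genes on log2(RPKM + 1). Spike-ins were not used here, no doublet caller was run, and 0 columns of per-sample values were left unmapped.

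Wells with more than 2000 UMIs were kept. Means, variances and covariances at 2000 UMIs were computed in closed form over all draws without replacement. A gene passed when its Fano factor exceeded the chi-square point, over its degrees of freedom, with an upper tail of 0.1%. A shared CV is the root of the summed covariances of a list over its squared mean. Runs of 46 bases were sought in GENCODE M21 transcripts. The code was tested on simulated data. Genes to name were taken from the 20 genes with the highest Fano factor, the 15 with the highest excess CV², the genes of the 15 highest and 5 lowest pairs, the 15 rare genes with the highest count in a cell, and the lists, and some results are not reported here. Genes named from settings without the deepest wells or the scarce genes, and the scarce genes themselves, were chosen after their values were seen. The members and lists were chosen with earlier results of these data known. Intervals and limits cover counting error only. The scripts ran in Python 3.11.15 on pandas 2.3.3, scipy 1.17.1 and numpy 2.4.6, with plots by matplotlib 3.10.9.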

Additional observations from a re-analysis of the deposited data

How the results depend on the processing

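No paired analysis was possible because all cells came from 1 library and no test between groups was made. The number of genes above Poisson spread was 93 when cells were thinned to 1000 UMIs, 1388 with a minimum mean of 0.1 and 389 with 0.5, settings that change the UMIs or the number of genes tested. Pairs at 0.3 or more numbered 448 at 1000 UMIs, 3536 among 139 cells thinned to 4000 UMIs, and 20 without the scarce genes and Rn45s, a setting added after seeing the data. Pairs at -0.3 or less numbered 0 at 1000 UMIs and without the scarce genes, 60 in 1 random draw, 65 by Spearman correlation of that draw and 721 at 4000 UMIs, and the cause was not tested. List sums above the limit fell to 10 at 1000 UMIs. With a UMI required in at most 2% of cells 1 gene was rare. Of 194 values recomputed, 173 kept their call or stayed within 1.5 times, and 8 changed side, of Esrrb in 3 settings and of Hmmr, Zfp42, Nanog, S phase and histone genes at 1000 UMIs. With a pseudocount of 0.1 the SMART-seq2 correlation of Top2a and Hmmr was 0.143. Depth limits all of this. At a median of 3938.5 UMIs per cell, genes with under 0.2 UMIs after thinning could not be tested.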

Other observations

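Targets of the pathways that the medium acts on had few UMIs. The 15 ERK targets had 648 UMIs in all and the sum had a Fano factor of 1.27, the 11 targets of Wnt signalling had 402 UMIs and 1.38, and the 8 STAT3 targets had 725 UMIs and 1.24, so that the Wnt sum alone passed the limit of 1.28. Of these 3 lists, 2 genes had enough UMIs to be tested and 1 passed, against 54.3% of all tested genes. The Nodal pathway held more. Lefty1 and Lefty2, secreted inhibitors of Nodal, had Fano factors of 1.69 and 1.70, and reached 26.3 and 32.8 UMIs per 10000 in single cells, with medians of 0 and 2.46. In SMART-seq2 Lefty1 was listed above 0 in 19 of 82 cells, up to 338 RPKM, and Lefty2 in 25, up to 157 RPKM, with a correlation of 0.406 between them. In SCRB-seq their correlation was 0.0576 and their transcripts share a run of 46 bases. In bulk the same genes had 0.00845 and 0.256 (Lefty1) and 0.00423 and 0.562 (Lefty2) UMIs per 10000, so that the bulk libraries differed from each other and from the single cells.

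Among imprinted genes Meg3, a maternally expressed noncoding RNA, had a Fano factor of 1.33 and a median of 2.27 UMIs per 10000, and in SMART-seq2 a CV² of 3.32 with a highest value of 820 RPKM. H19 had 0 UMIs. Pooled profiles of the 273 cells correlated with the bulk libraries at 0.673 and 0.713 over 3887 genes on the log2 scale, those of the deepest wells at 0.685 and 0.739, and the bulk libraries with each other at 0.965. These are correlations across genes, which are not independent replicates.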
